A study of Homo sapiens with 27 samples.

Results

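The change in mRNA levels between 30 min and 24 h of matrine treatment was measured by RNA-seq in U937, an established human myeloid leukaemia line of monocyte-like cells. Matrine is an alkaloid of the root of Sophora flavescens and was given at 0.8 mg/ml, with water as the vehicle of the control. There were 3 libraries of control cells, 3 of cells treated for 30 min and 3 of cells treated for 24 h. Of the 57905 gene identifiers in the table, the 11981 with a mean FPKM above 1 over the 6 treated libraries were compared. FPKM is the number of fragments scaled to the length of the transcript and the size of the library, so levels can be set side by side between genes. Another 15634 genes had at least 1 count in these libraries and were left out. The lowest mean among the genes kept was 1.0017 FPKM and the highest among those left out was 1.0 FPKM. The culture time of the control cells is not given in the sources used here, so time in culture and length of treatment cannot be told apart. The methods speak of independent replicates in general and no source says whether the 3 libraries of a group came from separate cultures, so each p-value measures only the spread between these libraries.

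The 9 libraries held between 17314931 and 21930018 counts, and the 10 most abundant genes took between 4.99% and 5.28% of them. Between 22142 and 22283 genes had a count at 24 h, against 20861 to 21338 in the control and 30 min libraries. All 16 genes of a list of myeloid genes typical of U937 passed the filter, ELANE, neutrophil elastase, reaching 1457 FPKM. Most markers of other cells were low. All 10 epithelial and fibroblast markers stayed under 1 FPKM in every library and 4 of them were at 0, as were 7 of 14 lymphoid and 9 of 18 erythroid markers. Another 4 lymphoid and 6 erythroid markers stayed under 1 FPKM. Of the lymphoid markers above it, PAX5 fell from 1.68 FPKM at 30 min to 0.583 at 24 h, and CD79A was not called between these times but was higher at 24 h than in the control (log2 0.74). Of the erythroid markers TFRC reached 90.55 FPKM, and TFRC and EPOR were called higher at 24 h than at 30 min. In bulk libraries a smaller share of cells of one kind and less RNA per cell cannot be told apart.

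Immediate early genes are transcribed within minutes of a MAP kinase or NF-kB signal, and many of their mRNAs are short-lived. Several of them encode brakes on the same signal, such as the phosphatase DUSP6. Genes of cholesterol synthesis are governed by SREBP transcription factors, which are released from the endoplasmic reticulum when its sterol content is low. Genes of ribosome biogenesis and nucleotide synthesis are well-known targets of the transcription factor c-Myc, and chaperone genes are governed by heat shock factors.

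A gene was called when its adjusted p was below 0.05 and its fold change was at least 1.5, which is 0.585 on the log2 scale. Between 30 min and 24 h, 1379 genes (11.5%) were lower and 1844 (15.4%) were higher of the 11981 tested, and the median log2 fold change of all of them was 0.01. The first step, 30 min against control, had moved far fewer genes, 63 lower (0.544%) and 11 higher (0.0949%) of 11587. The second step thus held most of the changes, in both directions. Of the genes called between 30 min and 24 h, 42.8% were lower, and this split depended on the scaling. It was 32.6% with library totals alone, where the median of all genes lay at 0.09, and 49.8% with quantile normalization, where the median lay at -0.03. The 30 min libraries end the first step and begin the second, and choosing early genes by them favours a move back at 24 h. The classes below are therefore a description, and values for both steps are set side by side. The gene lists were written with earlier results of these data known, so counts over them are a description too.

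**Figure D1:**
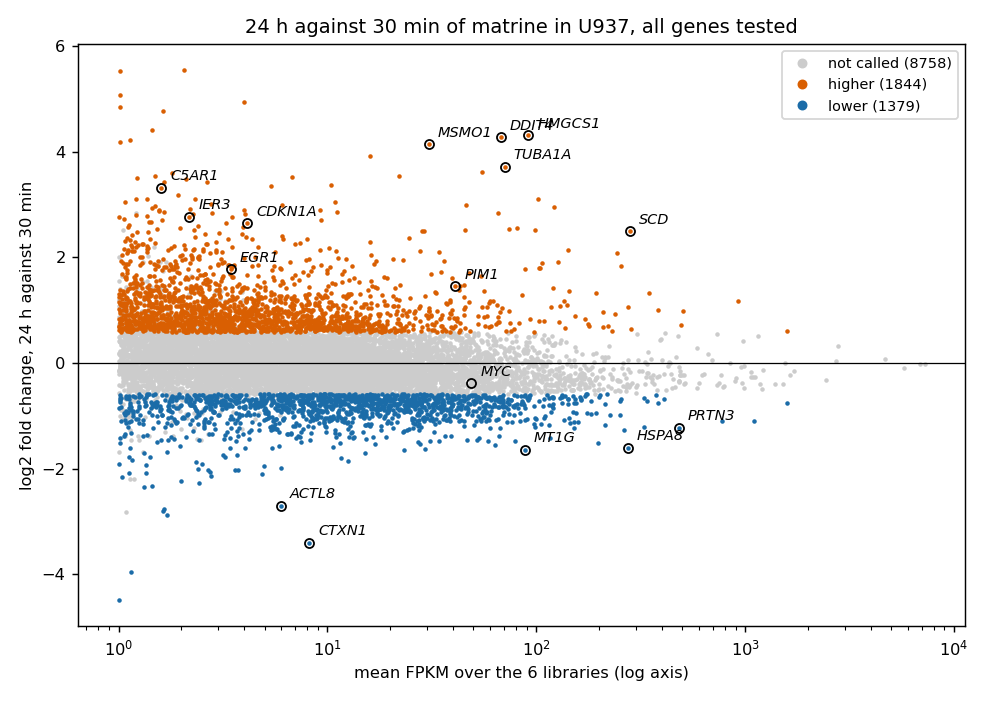
Each point is 1 of the 11981 genes, with its mean FPKM over the 6 treated libraries on a log axis and its log2 fold change, 24 h against 30 min, on the vertical axis. The 1844 higher genes are orange, the 1379 lower genes blue and the others grey; sterol genes such as HMGCS1 and MSMO1 lie above 4 on the log2 scale, whereas MYC lies at -0.38.

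Of the 63 genes lowered at 30 min, 60 were tested again at 24 h. Of these, 26 had risen (reversed), 4 had fallen further (deepened) and 30 were not called. The other 3 (F3, PLEKHA3P1 and ENSG00000265749) had dropped below the filter in the treated libraries and stayed lower than in the control. Of the reversed genes, IER3, IL1B, PDE4B and MIR221 also had a mean under 1 FPKM at 30 min, and passed the filter only through their 24 h values. The filter thus favours the reversed class over genes that stayed low. Among the 26 reversed genes, 8 passed their control level, 14 did not differ from the control by the call, and 4 were still lower than it.

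DUSP6, the phosphatase that switches off ERK, returned to its starting level. It was at 16.7, 16.4 and 17.2 FPKM in the 3 control libraries, 7.91, 8.07 and 8.17 after 30 min and 17.6, 20.5 and 18.8 after 24 h. The lowest library at 24 h lay above the highest at 30 min, and this was so for 68.6% of all genes tested, in one direction or the other. The log2 fold change was -1.05 in the first step and 1.15 (SE 0.069, adjusted p = 8.5e-12) in the second, and 24 h against control it was 0.13. EGR1, a zinc finger transcription factor and a classic target of ERK, was at 6.37, 7.54 and 5.74 FPKM in the control, 1.34, 1.52 and 1.64 at 30 min and 5.2, 5.35 and 5.67 at 24 h. It rose by 1.77 (SE 0.13, adjusted p = 1.7e-10) from 30 min to 24 h after a log2 change of -2.12 in the first step. All libraries at 24 h lay above those at 30 min but below the control libraries, and the difference from the control, -0.33, was under the fold threshold. A two-sided exact permutation test of a single gene over 3 and 3 libraries gives no p below 0.1, so the calls rest on the fit across genes.

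The promoters of these 2 markers are shown because both genes dropped and returned together. The windows are the 250 bases before the RefSeq start site in GRCh38.p14, read 5′ to 3′ on the gene's strand. In EGR1 (chr5:138465229-138465478, plus strand) the capitals mark 2 CArG boxes, the element bound by serum response factor, at 105 to 96 and 83 to 74 bases before the start. In DUSP6 (chr12:89352502-89352751, minus strand) no CArG box was found and the capitals mark a CCAAT box on the opposite strand.
EGR1: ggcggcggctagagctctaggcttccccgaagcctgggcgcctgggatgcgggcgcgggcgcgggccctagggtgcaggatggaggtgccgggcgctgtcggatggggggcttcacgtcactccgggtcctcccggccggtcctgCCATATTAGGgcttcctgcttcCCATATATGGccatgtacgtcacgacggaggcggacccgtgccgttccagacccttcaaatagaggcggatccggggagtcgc
DUSP6: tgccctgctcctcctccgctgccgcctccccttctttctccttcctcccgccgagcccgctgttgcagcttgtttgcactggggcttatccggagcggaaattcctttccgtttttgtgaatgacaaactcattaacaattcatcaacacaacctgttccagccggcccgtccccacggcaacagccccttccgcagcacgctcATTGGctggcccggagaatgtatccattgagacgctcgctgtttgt
A CArG box was present in 1 of the 46 promoters available for the genes lowered at 30 min, which is that of EGR1, and in 0.947% of the 8557 promoters of tested genes.

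PIM1 and IER3 went past the control. PIM1, a survival kinase induced by STAT signalling, was at 31.98, 32.4 and 31.6 FPKM in the control, 20.2, 21.6 and 21.1 at 30 min and 60.4, 60.2 and 62.1 at 24 h. The 3 groups did not overlap, and the late rise of 1.46 (SE 0.057, adjusted p = 1.2e-14) was larger than the early change of -0.60. IER3, an early-response gene that modulates ERK and NF-kB signalling, was at 1.17, 1.64 and 1.79 FPKM in the control, 0.34, 0.79 and 0.47 at 30 min and 3.23, 4.06 and 4.22 at 24 h. The 24 h libraries of IER3 lay above all others, with a rise of 2.77 (SE 0.27, adjusted p = 1.2e-08) on a low level. The activation marker CD69 showed the same order, with 8.07, 7.66 and 8.28 FPKM, then 3.41, 3.28 and 2.63, then 12.4, 13.9 and 12.1, a rise of 1.96 (SE 0.10). SMAD7, the inhibitory SMAD that blocks TGF-beta receptors, was at 2.02, 1.94 and 2.47 FPKM, then 1.4, 1 and 1.45, then 4.52, 3.7 and 4.85. Its rise was 1.68 (SE 0.15) and left it 0.98 above the control on the log2 scale. The other 4 genes past the control were C3orf80, IL12A-AS1, PRADX and ENSG00000207939. PRADX overlaps CTSD, a lysosomal protease gene on the opposite strand that itself moved from 550 to 1308 FPKM, and since no source gives the strand setting of the counting, reads of the pair cannot be told apart.

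The 14 reversed genes not called against the control at 24 h included further nuclear regulators, and some of these stood above it by less than the fold threshold. JUN, a subunit of AP-1, was at 12.03, 12.3 and 11.4 FPKM in the control, 4.74, 5.17 and 6.07 at 30 min and 9.91, 10.6 and 10.9 at 24 h, a late rise of 0.89 (SE 0.091). ID2, an inhibitor of helix-loop-helix factors, went from 22.7 ± 1.76 FPKM (SD, n = 3) at 30 min to 62.2 ± 1.81 at 24 h, a rise of 1.37. KLF10, a TGF-beta-inducible repressor, rose by 1.31 (SE 0.091) to 11.7 ± 0.4004 FPKM. Both ended above every control library, ID2 having been at 45.8, 49.01 and 45.6 FPKM there and KLF10 at 7.95, 7.75 and 7.83, with differences of 0.36 (adjusted p = 5.5e-05) and 0.53 (adjusted p = 2e-05) on the log2 scale. CEBPB, a myeloid transcription factor, rose by 0.85 (SE 0.094) to 45.7 ± 3.61 FPKM, against 40.8 ± 6.29 in the control. The same class held B3GNT2, JRKL, LINC02470, MIR23AHG, TMEM238, TRGV9 and ZNF217, with rises between 0.61 (B3GNT2) and 1.25 (TRGV9). The call of B3GNT2 was lost without 30 min replicate 3 (0.55), and that of TMEM238 without 30 min replicate 2 (0.68), 30 min replicate 3 (0.54) or 24 h replicate 3 (0.56).

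The cytokine genes split between return and persistence. IL1B, which encodes interleukin-1 beta, was at 2.75, 2.57 and 3 FPKM in the control, 0.72, 0.66 and 0.71 at 30 min and 2.17, 2.93 and 2.71 at 24 h. The control and 24 h libraries of IL1B overlapped, with a late rise of 1.82 (SE 0.16, adjusted p = 4.6e-09). TNF was at 5.68, 5.7 and 6.06 FPKM in the control, 0.93, 1.39 and 1.61 at 30 min and 3.48, 4.01 and 3.41 at 24 h. TNF thus rose by 1.40 (SE 0.18) and remained below the control, by the call, at -0.72. CCL2, the monocyte chemoattractant MCP-1, was at 43.6, 41.6 and 41.1 FPKM in the control, 8.7, 11.2 and 10.9 at 30 min and 8.26, 9.16 and 9.62 at 24 h. CXCL8, interleukin-8, was at 8.2, 9.85 and 8.46 FPKM in the control, 1.8, 1.86 and 1.47 at 30 min and 1.69, 1.9 and 1.73 at 24 h. Neither chemokine was called in the second step, and the 30 min and 24 h libraries overlapped for both. Their late changes were -0.26 (95% interval -0.49 to -0.04) and -0.03 (95% interval -0.35 to 0.29), against -2.03 and -2.35 in the first step. Over the 17 cytokine and NF-kB genes tested, 5 were lower and 0 higher at 30 min, and from 30 min to 24 h 6 were higher and 1 lower. Of all genes tested, 0.544% were lower at 30 min, and 15.4% were higher and 11.5% lower in the second step. The one lower gene was GPR84, and TNFAIP3, the A20 brake on NF-kB, was among the higher ones at 1.37 (SE 0.10).

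Besides TNF, 3 reversed genes were still lower than the control at 24 h. ZFP36L2, which binds AU-rich elements and promotes mRNA decay, was at 276, 271 and 256 FPKM in the control, 87.5, 97.5 and 91.3 at 30 min and 168, 169.5 and 161 at 24 h. The groups of ZFP36L2 did not overlap, and its rise of 0.77 (SE 0.053) made up part of the early drop of -1.53. PDE4B, a cyclic AMP phosphodiesterase, rose by 0.62 (SE 0.11), a call lost without 30 min replicate 1 (0.56) or 30 min replicate 2 (0.57). MIR221 was at 12.7, 15.02 and 11.6 FPKM in the control, 0, 0.44 and 2.23 at 30 min and 6.19, 3.12 and 3.33 at 24 h. One library at 30 min had no count, and the rise of 2.13 (SE 0.70, adjusted p = 0.011) was not called without 30 min replicate 1 (1.54, adjusted p = 0.058) or 24 h replicate 1 (1.76, adjusted p = 0.063). MIR221 lies within the host transcript MIR222HG, and reads of this kind of library come from the primary transcript and not from the mature miRNA. The host itself was at 4.35, 4.76 and 4.62 FPKM in the control, 1.33, 1.59 and 1.23 at 30 min and 1.99, 2.36 and 1.96 at 24 h. Its rise of 0.52 was under the fold threshold, and passed it without 30 min replicate 2 (0.62). The mature products of the host are shown because they share their seed, bases 2 to 8, in capitals. Sequences and positions are those of RefSeq in GRCh38.p14, at chrX:45746180-45746202 and chrX:45747036-45747056 on the minus strand.
hsa-miR-221-3p: aGCUACAUugucugcuggguuuc
hsa-miR-222-3p: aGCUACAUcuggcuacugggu

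MYC stayed down. The gene of the transcription factor c-Myc was at 204, 213 and 204 FPKM in the control, 49.1, 55.1 and 58.03 at 30 min and 42.2, 46.1 and 43.1 at 24 h. All 24 h libraries lay below those of 30 min, and the late change of -0.38 (SE 0.062, 95% interval -0.51 to -0.26, adjusted p = 1.5e-05) was under the fold threshold, after -1.93 in the first step. It is counted among the 30 genes not called in the second step. Of these 30, 12 were still called lower at 24 h than in the control, and 18 were not called either way. In that comparison 11.2% of genes were lower, but the 30 had been chosen as lower than the same control libraries. Most of the 18 rose in the second step at an adjusted p below 0.05 but under the fold threshold, such as MIR142HG (0.56), THBD (0.55) and BAMBI (0.54). JUNB (0.08), NENF (0.25) and ZNF503 (0.04) did not reach that p. TENT5A, a poly(A) polymerase, stood near its early level, with 38.6, 34.6 and 38.7 FPKM in the control, 17.2, 19.6 and 16.6 at 30 min and 18.7, 18.7 and 17.9 at 24 h. The 30 min and 24 h libraries of TENT5A overlapped and the late change was -0.02 (95% interval -0.16 to 0.11). Other genes that stayed low were PRDM8, a repressor of the PRDM family, at -0.19, and SNAPC1, a subunit of the factor that transcribes small nuclear RNA genes, at -0.21. SPRY2, an inhibitor of receptor tyrosine kinase signalling, rose in part, from 13.2 ± 0.38 FPKM to 17.7 ± 0.957 (SD, n = 3), a change of 0.35 under the fold threshold. CXCR4, the receptor of CXCL12, and CITED2, a co-regulator of CBP and p300, had values of 0.50 and 0.49, also under it, and reached 117 and 110.4 FPKM against 126 and 124 in the control.

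**Figure D2:**
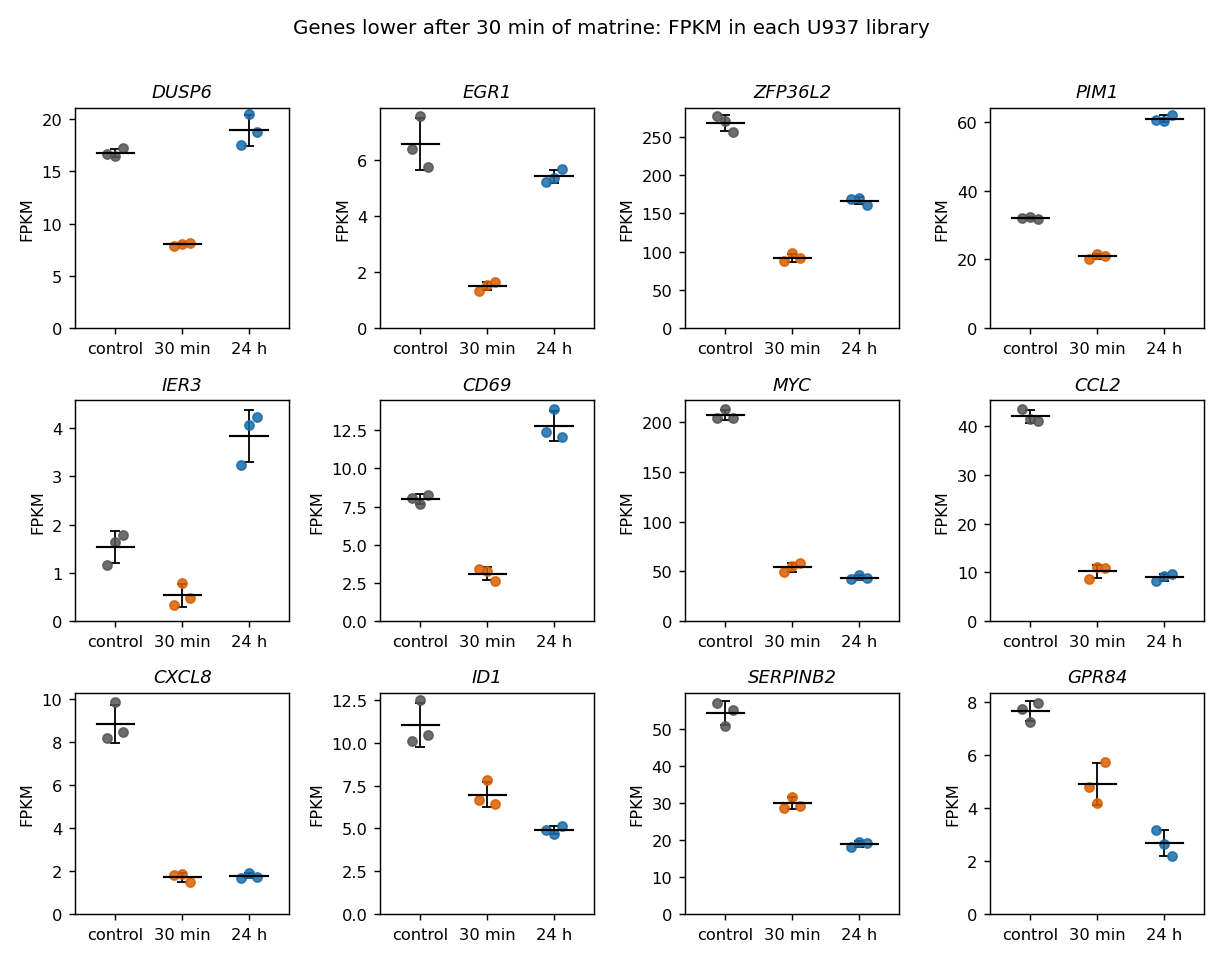
FPKM of 12 genes lowered at 30 min, 1 point per library, with horizontal bars at group means and error bars of 1 SD (n = 3). The top row shows DUSP6, EGR1, ZFP36L2 and PIM1 rising again at 24 h, the middle row IER3 and CD69 above the control and MYC and CCL2 still low, and the bottom row CXCL8 at a similar low level at both times and ID1, SERPINB2 and GPR84 lower still.

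Only 4 genes lowered early were called lower again in the second step: ID1, SERPINB2, RGCC and GPR84. ID1, an inhibitor of helix-loop-helix factors and a target of BMP signalling, was at 10.1, 12.5 and 10.5 FPKM in the control, 6.69, 7.82 and 6.44 at 30 min and 4.89, 4.66 and 5.12 at 24 h. Its groups did not overlap, and it changed by -0.65 and then by -0.59 (SE 0.13, adjusted p = 0.00056), close to the fold threshold. SERPINB2, the plasminogen activator inhibitor PAI-2 of monocytes, was at 57.03, 50.6 and 55.2 FPKM, then 28.6, 31.7 and 29.2, then 17.9, 19.4 and 19.1. It changed by -0.85 and then by -0.75 (SE 0.065, adjusted p = 2.8e-09). GPR84, a receptor of medium-chain fatty acids on myeloid cells, was at 7.74, 7.23 and 7.97 FPKM, then 4.78, 4.17 and 5.73, then 3.17, 2.62 and 2.2, a late change of -0.96 (SE 0.14). RGCC, a regulator of the cell cycle, was at 25.8, 28.9 and 24.1 FPKM, then 17.6, 15.5 and 15.7, then 8.54, 10.99 and 13.6, a late change of -0.64 (SE 0.13). The 24 h libraries lay below the others for all 4 genes. The class was the least stable of all: ID1 dropped under the fold threshold without control replicate 2 (-0.58), 30 min replicate 2 (-0.51), 24 h replicate 1 (-0.58) or 24 h replicate 2 (-0.55), and RGCC without 30 min replicate 1 (-0.57) or 24 h replicate 1 (-0.47). Without 30 min replicate 1 or 30 min replicate 2 the class held 2 genes. A further member, not named here, thus left it each time. ID1 and ID2, which fell together at 30 min, moved in opposite directions afterwards.

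The 11 genes raised at 30 min were a mixed group. MIR25, a miRNA gene within the replication gene MCM7, was at 31.5, 35.7 and 36.4 FPKM in the control, 64.1, 66.1 and 76.4 at 30 min and 38.8, 32.2 and 31.1 at 24 h. These values rest on 53 to 131 counts per library, and as for MIR221 the reads do not come from the mature miRNA. MED26, a subunit of the Mediator complex, was at 3.06, 3.28 and 3.69 FPKM, then 5.45, 5.36 and 5.4, then 2.83, 2.99 and 2.95. Neither was called against the control at 24 h, where MIR25 overlapped it and MED26 lay just below it, with late changes of -1.10 (SE 0.17) and -0.97 (SE 0.089). SNHG12, a snoRNA host, did so by -0.61 (SE 0.063), a call lost without 30 min replicate 3 (-0.58). Of the other genes, 1 (ENSG00000262877) rose again, from 6.103 ± 1.35 to 19.3 ± 1.63 FPKM (SD, n = 3), and 7 were not called. Among those 7, CLK1, a kinase of splicing factors, and RSRP1, an arginine- and serine-rich protein, were at 0.34 and 0.43 in the second step and at 0.96 and 1.16 against the control. DNAJB9, a chaperone of the endoplasmic reticulum, and RHBDL1, a rhomboid protease, stood at 1.18 and 1.27 against the control. HSPA1B, an inducible HSP70, was at 4.81, 5.39 and 4.65 FPKM in the control, 7.56, 7.18 and 9.01 at 30 min and 6.62, 5.44 and 6.81 at 24 h, a late change of -0.41 under the fold threshold. HSPA1B has a near-identical copy, HSPA1A, so its counts are uncertain. The number of genes raised at 30 min rested on a single library and was 18 without 30 min replicate 2.

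**Figure D3:**
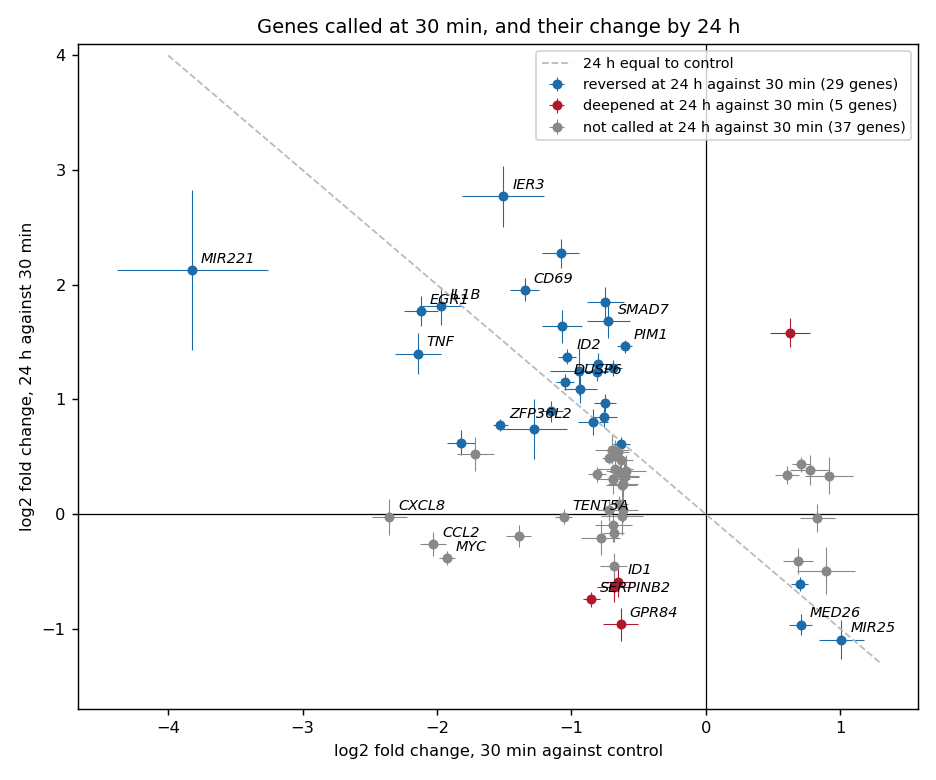
Log2 fold change of 30 min against control (horizontal) and of 24 h against 30 min (vertical) for the 71 genes called at 30 min and tested again, with bars of 1 SE. Points on the dashed line had returned close to the control level, as each comparison was scaled in its own fit. Both axes use the same 30 min libraries, so part of the slope is built in. IER3 and PIM1 lie above the line, MYC, CCL2 and CXCL8 at late changes between -0.38 and -0.03, and ID1, SERPINB2 and GPR84 below it.

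As families, the early-response lists rose more often than they fell in the second step. They hold genes already described above and were written with earlier results of these data known, so their shares describe these lists only. Among all genes tested, 15.4% were higher and 11.5% lower in that step, and 0.544% were lower at 30 min. Of 27 MAPK early-response and feedback genes tested, 7 were lower at 30 min, and from 30 min to 24 h 11 were higher and 3 lower, with a median log2 fold change of 0.49 against 0.01 for all genes. The share that fell was close to that of all genes. The 3 that fell were FOSL1, a subunit of AP-1, DUSP2, a nuclear phosphatase of ERK and p38, and ETV4, an ETS factor, at -0.81. FOSL1 was at 11.8, 12.2 and 11.7 FPKM at 30 min and 3.71, 4.89 and 5.09 at 24 h. DUSP2 was at 15.5, 15.6 and 13.03 FPKM in the control, 9.72, 8.64 and 12.3 at 30 min and 3.65, 3.94 and 4.45 at 24 h, so that its small early difference of -0.52 was followed by one of -1.42 (SE 0.13), opposite to that of DUSP6. DUSP10, a phosphatase of JNK and p38, rose by 1.83 (SE 0.17). Of the 11 higher genes, 3 (IER3, DUSP10 and ATF3) had a mean of at most 1 FPKM at 30 min and passed the filter only through their 24 h values, as did 2 of the 6 higher cytokine and NF-kB genes (IL1B and NFKBIZ). Of 14 ID and SMAD genes, 4 were lower at 30 min, and then 5 were higher, led by SKIL, the SMAD co-repressor SnoN, at 1.96 (SE 0.13), and 1 (ID1) was lower. Of 11 PIM and SOCS genes, 5 rose and 0 fell, but 2 of the 5 passed the filter only through their 24 h values. These were SOCS1, a suppressor of JAK kinases, at 0.43 FPKM at 30 min and 2.64 at 24 h, and BCL6, a transcriptional repressor, at 0.66 and 2.18. PIM2 and SOCS2 were at -0.27 and -0.46 and did not pass the threshold. Of 14 genes of mRNA decay and growth arrest, 7 rose and 2 fell. Among the risers, the cyclin-dependent kinase inhibitor gene CDKN1A (p21) went from 1.27, 0.96 and 1.02 FPKM at 30 min to 7.91, 6.65 and 7.02 at 24 h, CDKN2D (p19) rose by 1.18 and CDKN2C (p18) by 1.03. The 2 that fell, again a share near that of all genes, were RGCC and TOB2, an anti-proliferative adaptor of the deadenylase, at -0.87. TOB2 had been at 0.43 at 30 min and was at -0.43 at 24 h against the control, both under the fold threshold.

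The second step also held genes that had not moved at 30 min. A gene was counted as late-only when it was called at 24 h against both 30 min and control, in the same direction, and had an adjusted p of at least 0.05 and an absolute log2 fold change under 0.2 at 30 min. This gave 1039 genes lower, with a median log2 fold change of -0.83, and 965 higher, with a median of 0.87. Large changes were mostly increases, since 37 late-only genes were at least 4-fold higher and 9 at least 4-fold lower. The remaining 340 lower genes included 242 that were not called lower than the control. A further 72 and 22 were called lower than it but had a smaller early change in the same or the opposite direction. Of the remaining 879 higher genes, 305 were not called higher than the control, some of them being called lower than it. A smaller early change in the same or the opposite direction was found for 104 and 142. Another 319 were too low at 30 min and in the control to be tested in the first step. Among the 1844 higher genes, 397 had a mean of at most 1 FPKM at 30 min and were tested only because they were higher at 24 h, and 75 of the 1379 lower genes had such a mean at 24 h. Among the 319 were C5AR1, ITGAX, MARCO, MPO, OPTN, SOCS1, BCL6 and DUSP10. More genes had a count in the 24 h libraries, as given above, and its part in these calls was not tested.

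Cholesterol synthesis showed the highest median of all lists. Among all genes tested, 15.4% rose and 11.5% fell in the second step. Of 27 genes of sterol synthesis and uptake tested, 22 rose and 1 fell between 30 min and 24 h, with a median log2 fold change of 2.50 against 0.01 for all genes. None of the 27 was called at 30 min, where their median was -0.01. Their summed level lay between 546 and 569 FPKM in the 6 control and 30 min libraries and between 2597 and 2698 at 24 h. HMGCS1, the synthase at the entry of the mevalonate pathway, was at 9.51, 8.24 and 8.56 FPKM in the control, 8.91, 8.66 and 7.48 at 30 min and 179, 173 and 174 at 24 h, 19.8-fold higher than at 30 min (log2 4.31, SE 0.072, adjusted p = 1.7e-20). MSMO1, a methylsterol oxidase, was at 3.22, 3.94 and 2.17 FPKM at 30 min and 61.4, 57.4 and 55.5 at 24 h, 17.6-fold higher. MVD, which makes isopentenyl diphosphate, was at 7.96, 7.27 and 8.3 FPKM at 30 min and 104, 96.5 and 104 at 24 h, 12.3-fold higher. In all 3 genes the control and 30 min libraries overlapped and the 24 h libraries stood apart. LSS, lanosterol synthase, rose 8.55-fold to 183 ± 4.05 FPKM (SD, n = 3). The sterol sensor partner INSIG1 and the transcription factor SREBF2 rose by 2.96 and 1.48 on the log2 scale. The 1 gene that fell, MYLIP, encodes a ubiquitin ligase. It was at 13.9, 12.8 and 14.3 FPKM in the control, 9.94, 11.6 and 11.4 at 30 min and 7.56, 6.93 and 6.91 at 24 h, a late change of -0.70 (SE 0.083). PMVK, phosphomevalonate kinase, and SCAP, the escort of SREBP, were at -0.49 and -0.27 and did not pass the fold threshold.

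The promoters of the 3 sterol genes with the largest rises are shown with their CCAAT boxes, bound by NF-Y, in capitals (ATTGG is the same box read on the opposite strand). They are the 250 bases before the RefSeq start in GRCh38.p14, at chr5:43313413-43313662 on the minus strand, chr4:165327419-165327668 on the plus strand and chr16:88663092-88663341 on the minus strand.
HMGCS1: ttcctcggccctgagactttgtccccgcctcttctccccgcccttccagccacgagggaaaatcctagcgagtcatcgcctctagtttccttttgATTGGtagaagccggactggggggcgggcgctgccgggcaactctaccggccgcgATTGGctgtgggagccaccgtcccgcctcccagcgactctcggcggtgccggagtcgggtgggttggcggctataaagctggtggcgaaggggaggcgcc
MSMO1: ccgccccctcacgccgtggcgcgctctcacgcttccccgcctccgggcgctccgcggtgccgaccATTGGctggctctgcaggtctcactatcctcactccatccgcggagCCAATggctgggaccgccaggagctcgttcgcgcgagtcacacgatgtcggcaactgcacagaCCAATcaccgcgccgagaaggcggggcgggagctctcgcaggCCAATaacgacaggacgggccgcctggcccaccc
MVD: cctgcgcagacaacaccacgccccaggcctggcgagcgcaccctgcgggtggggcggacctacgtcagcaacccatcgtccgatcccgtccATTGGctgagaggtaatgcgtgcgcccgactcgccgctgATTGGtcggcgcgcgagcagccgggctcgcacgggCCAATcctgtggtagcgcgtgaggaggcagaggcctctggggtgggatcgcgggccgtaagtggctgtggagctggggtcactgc
Counting both strands, a CCAAT box was present in 15 of the 21 promoters available for the list (71.4%), and in 35.5% of the 8557 promoters of tested genes. The share was close to this, 29 of 44 (65.9%), in the DNA replication and mitosis list, where more genes fell than rose. The SREBP element TCACNCCAC, with N for any base, was present in 1 of the 21 and in 0.853% of all. These are matches of letters and were not tested as binding sites.

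Genes of fatty acid synthesis and desaturation rose with them. Of 13 tested, 9 rose and 0 fell, against 15.4% and 11.5% of all genes. The list median was 0.95. ACSS2, which makes acetyl-CoA from acetate, was at 3.21, 3.03 and 3.8 FPKM at 30 min and 43.4, 38.1 and 41.2 at 24 h. SCD, the stearoyl-CoA desaturase, was at 76.1, 83.2 and 84.3 FPKM at 30 min and 489.7, 483 and 476 at 24 h. The groups did not overlap, and the rises were 11.6-fold and 5.63-fold. FADS2, a further desaturase, rose 5.69-fold, and it overlaps FADS1 on the opposite strand, which went from 9.91 to 45.7 FPKM, and FEN1.

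Several other late-only genes rose strongly. TUBA1A, an alpha-tubulin, was at 10.02, 9.66 and 8.95 FPKM in the control, 9.1, 9.45 and 9.91 at 30 min and 137, 132 and 126 at 24 h, 13.1-fold higher than at 30 min. Its exons overlap those of TUBA1C, a close copy on the opposite strand that was at 132 FPKM at 30 min and 117 at 24 h, so the split of reads between them is uncertain. PRL, the hormone prolactin, was at 1.18, 1.47 and 1.19 FPKM at 30 min and 11.7, 11.1 and 9.5 at 24 h. TNFRSF14, the receptor HVEM, was at 2.4, 2.17 and 3.11 FPKM at 30 min and 20.6, 19.5 and 18.6 at 24 h. Both rose more than 7-fold from low levels, PRL 7.93-fold and TNFRSF14 7.23-fold. RUSC1-AS1 rose 7.43-fold, but it overlaps the sterol gene FDPS on the opposite strand, which went from 51.5 to 204 FPKM, and the reads of this pair cannot be told apart.

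The ATF4 stress list moved in part. Of 25 tested, 12 rose and 1 fell, against 15.4% and 11.5% of all genes. The list median was 0.49. DDIT4, an inhibitor of mTORC1, was at 8.34, 10.4 and 9.04 FPKM in the control, 6.07, 6.29 and 6.55 at 30 min and 122, 135 and 131 at 24 h. It first stood below the control (-0.54, under the fold threshold) and then rose by 4.28 (SE 0.084, adjusted p = 1.5e-19). DDIT3, the factor CHOP, rose by 1.96 (SE 0.097), and SESN2, a leucine sensor that restrains mTORC1, by 1.71 (SE 0.087). DDIT3 overlaps MARS1, at 30.8 FPKM at 30 min and 33.4 at 24 h, and MBD6. The 1 that fell was SLC7A5, a leucine transporter, at -0.61 (SE 0.060), a call lost without 30 min replicate 3 (-0.53). Against the control it was at -0.57, under the fold threshold.

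Lysosome and monocyte genes rose in part. Of 37 lysosome and autophagy genes tested, 13 rose and 0 fell, against 15.4% and 11.5% of all genes, and 24 were not called. The list median was 0.42. OPTN, an autophagy receptor, was at 0.59, 0.69 and 0.78 FPKM at 30 min and 3.43, 3.15 and 3.65 at 24 h, and WIPI1, which binds phosphoinositides on forming autophagosomes, was at 1.09, 1.02 and 1.28 and 4.95, 5.43 and 4.98. NPC2, the carrier of cholesterol in lysosomes, rose from 47.7 ± 2.95 to 123 ± 4.42 FPKM (SD, n = 3). BNIP3, a mitophagy receptor, was at -0.23 and was not called. Of 17 monocyte and macrophage genes tested, 10 rose and 0 fell, but 5 of the 10, among them C5AR1, ITGAX and MARCO, had a mean of at most 1 FPKM at 30 min and passed the filter only through their 24 h values. The count is therefore no measure of the list as a whole. C5AR1, the receptor of complement C5a, was at 0.11, 0.14 and 0.14 FPKM in the control, 0.28, 0.18 and 0.37 at 30 min and 3.27, 2.73 and 2.76 at 24 h. ITGAX, integrin CD11c, was at 0.45, 0.42 and 0.59 FPKM at 30 min and 4.03, 4.1 and 3.56 at 24 h, and MARCO, a scavenger receptor, was at 0.86, 0.68 and 0.71 and 3.11, 3.38 and 3.39. These 3 genes were near or under 1 FPKM in every control and 30 min library and well above it at 24 h. TYROBP and FCER1G, adaptors of activating receptors, rose by 1.92 (SE 0.10) and 1.80 (SE 0.068). LYZ, TLR2 and TLR4 were not called, with values of -0.39, -0.33 and -0.11, and 14 of the 31 listed genes were under the filter. Within the list of U937 genes, MPO, myeloperoxidase, rose by 2.14 from a level under 1 FPKM, and PRTN3, proteinase 3, fell from 676, 618 and 696 FPKM at 30 min to 297, 298 and 306 at 24 h. TFRC, the transferrin receptor, listed with the erythroid genes but expressed by most growing cells, rose by 1.10 to 89.8 ± 0.722 FPKM. EPOR, the erythropoietin receptor, rose by 0.71 after -0.34 at 30 min, and was at 0.39 against the control, under the fold threshold. The globin genes stayed under the filter.

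**Figure D4:**
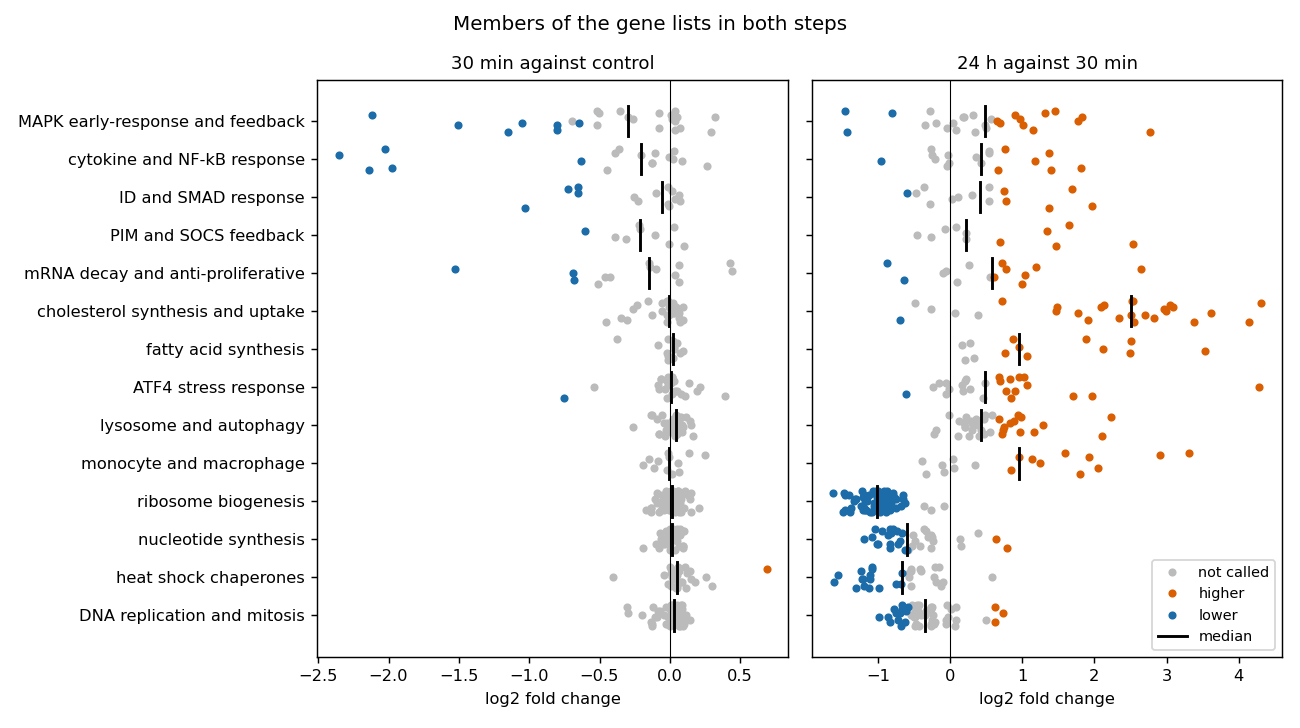
Log2 fold changes of the tested members of 14 gene lists, 30 min against control on the left and 24 h against 30 min on the right, with genes called higher in orange, called lower in blue, not called in grey and the list median as a black bar. The 5 early-response lists at the top hold nearly all the blue points on the left. On the right the sterol list has its median at 2.50 and the ribosome biogenesis list at -1.01. The lists were written with earlier results of these data known.

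Ribosome biogenesis genes fell as a list, in a step where 11.5% of all genes fell and 15.4% rose. Of 66 ribosome biogenesis genes tested, 63 fell and 0 rose between 30 min and 24 h, with a median of -1.01, and 61 of them were late-only. None was called at 30 min, when MYC had already dropped, and their median in the first step was 0.02. Their summed level lay between 3504 and 3642 FPKM in the control and 30 min libraries and between 1907 and 1934 at 24 h. NOP16, a nucleolar protein of the large subunit, was at 40.3, 41.7 and 40.1 FPKM in the control, 45.6, 41.2 and 43.5 at 30 min and 14.4, 15.5 and 14.96 at 24 h, a change of -1.62 (SE 0.065, adjusted p = 1.8e-14). DDX21, a nucleolar RNA helicase, was at 113, 125 and 105 FPKM at 30 min and 42.7, 44.9 and 42.2 at 24 h. RRS1, a large-subunit assembly factor, was at 84.8, 84.4 and 86.3 FPKM at 30 min and 33.3, 30.7 and 33.7 at 24 h. The groups did not overlap for any of the 3 genes. RRP8, an rRNA methyltransferase, was at -0.27 and was among the 3 that did not pass. NOP16 overlaps HIGD2A on the opposite strand, at 88.7 FPKM at 30 min and 87.0 at 24 h.

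The promoter of NOP16, the largest decrease in the list, is shown with 2 overlapping CCGGAAG motifs, the core bound by ETS factors, on opposite strands in capitals. It lies at chr5:176388599-176388848 on the minus strand of GRCh38.p14 (RefSeq).
NOP16: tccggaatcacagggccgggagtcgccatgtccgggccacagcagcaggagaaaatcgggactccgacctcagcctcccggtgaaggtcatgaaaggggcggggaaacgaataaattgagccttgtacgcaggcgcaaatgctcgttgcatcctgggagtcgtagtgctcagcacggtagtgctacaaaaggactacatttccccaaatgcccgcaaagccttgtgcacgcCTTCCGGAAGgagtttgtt
On either strand this motif was in 20 of 58 promoters of the list (34.5%), in 25.3% of the promoters of late-only genes that fell and in 18.1% of those of all genes tested. The E-box CACGTG, the core bound by c-Myc with MAX, was in 7 of the 58 (12.1%) and in 9.61% of all.

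Nucleotide synthesis fell in part. Of 35 genes tested, 18 fell and 2 rose, against 11.5% and 15.4% of all genes. The list median was -0.60. NME1, a nucleoside diphosphate kinase, was at 39.3, 35.8 and 36.6 FPKM at 30 min and 17.6, 16 and 18.2 at 24 h, and the purine synthesis genes PAICS and PFAS changed by -1.08 and -1.05. The 2 that rose were RRM2B, the p53-inducible subunit of ribonucleotide reductase, at 0.78, and SHMT1, the cytosolic serine hydroxymethyltransferase, at 0.64. RRM2, the S-phase subunit, was at 0.38 and did not pass the fold threshold. Of 53 DNA replication and mitosis genes, 14 fell and 3 rose, with a median of -0.35. RFC3, GINS3 and MCM10, parts of the replication machinery, changed by -0.99, -0.86 and -0.84. The 3 that rose, E2F8, CCNE2 and E2F2, stand at the G1 to S transition, with values of 0.73, 0.63 and 0.63. E2F8 and CCNE2 had both been at -0.30 at 30 min, and at 24 h were at 0.45 and 0.35 against the control, under the fold threshold. The call of CCNE2 was lost without 30 min replicate 3 (0.57).

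Chaperone genes fell in part. Of 31 tested, 16 fell and 0 rose, against 11.5% and 15.4% of all genes, and 15 were not called. All 16 were late-only. The list median was -0.66. At 30 min the list median was 0.05, and HSPA1B was the only member called, in the opposite direction. HSPA8, the constitutive HSC70, was at 398, 384 and 380.2 FPKM in the control, 421, 394 and 406 at 30 min and 142, 139 and 144 at 24 h, 3.04-fold lower than at 30 min (log2 -1.60, SE 0.050, adjusted p = 2.2e-16). FKBP4, a co-chaperone of HSP90, was at 96.8, 90.7 and 93.6 FPKM at 30 min and 33.5, 33.5 and 34.2 at 24 h. CHORDC1, a further partner of HSP90, was at 4.49, 5.3 and 4.06 FPKM at 30 min and 2.14, 1.96 and 1.82 at 24 h. The 24 h libraries lay below all others in the 3 genes. At the other end of the list and not called were the HSP40 genes DNAJB4 and DNAJB1, at 0.58 and -0.12, and the HSP70 co-chaperone BAG3, at -0.09. The promoter of HSPA8 (chr11:123062137-123062386, minus strand, GRCh38.p14, RefSeq) is shown because it holds 2 heat shock elements, GAANNTTCNNGAA and its reverse TTCNNGAANNTTC, with N for any base. Capitals mark these and 2 CCAAT boxes on the opposite strand (ATTGG).
HSPA8: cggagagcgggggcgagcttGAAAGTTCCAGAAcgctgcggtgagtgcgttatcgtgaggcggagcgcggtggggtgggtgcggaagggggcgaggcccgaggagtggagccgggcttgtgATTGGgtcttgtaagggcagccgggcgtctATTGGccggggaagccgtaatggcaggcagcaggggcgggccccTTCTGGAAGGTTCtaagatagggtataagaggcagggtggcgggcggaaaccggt
A heat shock element was in 3 of 28 promoters of the list and in 0.257% of all promoters of tested genes.

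**Figure D5:**
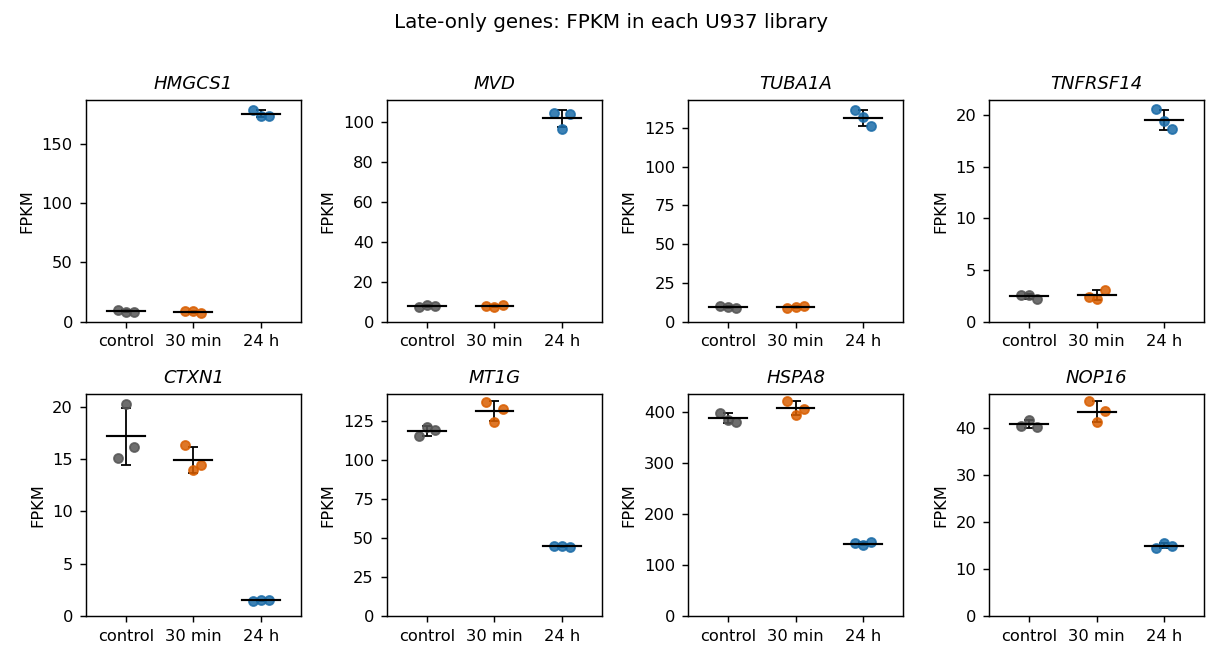
FPKM of 8 late-only genes in the 9 libraries, 1 point per library, with horizontal bars at group means and error bars of 1 SD (n = 3). In the top row HMGCS1, MVD, TUBA1A and TNFRSF14 rise at 24 h alone; in the bottom row CTXN1, MT1G, HSPA8 and NOP16 drop at 24 h alone.

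The largest late-only decreases among genes with a mean of at least 5 FPKM over the 6 treated libraries, those of CTXN1, ACTL8, SRPX and GAL, were outside these lists. Of the 9 genes at least 4-fold lower, the other 7 had lower means and are not described. CTXN1, cortexin, a small membrane protein, was at 15.1, 20.3 and 16.1 FPKM in the control, 16.3, 13.97 and 14.5 at 30 min and 1.42, 1.54 and 1.51 at 24 h, 10.6-fold lower than at 30 min. ACTL8, an actin-like protein known from testis and tumours, was at 9.24, 11.5 and 10.2 FPKM at 30 min and 1.75, 1.56 and 1.7 at 24 h, 6.49-fold lower. GAL, the neuropeptide galanin, was at 20.6, 19.5 and 17.95 FPKM at 30 min and 5.69, 5.14 and 6.13 at 24 h. None of the 3 genes was called at 30 min, and their 24 h libraries lay below all others. The metallothionein genes MT1G and MT1X, which bind zinc and copper, changed by -1.64 (SE 0.067) and -1.71 (SE 0.11), MT1G going from 131 ± 6.39 to 44.7 ± 0.261 FPKM (SD, n = 3). Metallothionein genes are close copies, so the split of reads among them is uncertain. SRPX, TWNK, the helicase of mitochondrial DNA, and SLC27A2, a fatty acid transporter, changed by -1.99, -1.65 and -1.61. TWNK overlaps MRPL43 and SLC27A2 overlaps ATP8B4, both on the opposite strand, and ATP8B4 was at 22.1 FPKM at 30 min and 28.9 at 24 h.

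The classes differed in gene length, level and GC content, given here as medians without a test. Genes lowered at 30 min were short, with a median span of 6.35 kb and 4 exons, against 26.0 kb and 9 exons for all genes tested. The 26 that reversed and the 30 not called later were alike in this, with median spans of 5.62 and 6.35 kb. Late-only genes had spans near that of all genes, 23.6 kb for those that fell and 26.4 kb for those that rose. Their median levels in the control were 17.97 and 4.17 FPKM, against 6.87 for all genes. The median GC content of the longest transcript of each gene was 47.6% for those that fell, near the 48.2% of all genes, and 52.6% for those that rose. Gene models and transcripts were those of GENCODE release 44.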

How the data were processed

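The authors sequenced paired-end libraries, mapped the reads with HISAT2 2.0.1 and counted them per gene with HTSeq 0.6.1; the submitters' processing notes also name cutadapt 1.9.1. The paper names both poly(A) isolation and rRNA removal. The paper gives hg38 and the submitters' notes give GRCh37, and the table holds no coordinates, so positions are printed only for RefSeq sequences of GRCh38.p14. Whether counting used the strand, and how multi-mapped reads were treated, is not given in the sources used here. The deposited table holds, for each library, the raw count of each gene and a rounded FPKM value, both made by the authors. Libraries of HL-60 and K562 were not used here.

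Of the 57905 identifiers, 51996 were given a symbol from GENCODE release 44 and the gene name tables. Counts were normalized by TMM and tested with the quasi-likelihood test of edgeR 4.0.16 (R 4.3.3), with Benjamini-Hochberg adjustment over all genes tested. Each comparison had its own fit of all 9 U937 libraries, over the genes tested in it. The steps therefore add up only nearly to the change of 24 h against control. Adjusted p-values in the text come from these fits. Those of MIR221 without a library come from the same fit of the other libraries. Genes with a mean of 1 FPKM or less in the 6 libraries compared were not tested. Calls required an adjusted p under 0.05 with a change of 1.5-fold or more. Standard errors and 95% intervals are on the log2 scale of these fits. Values after ± are the SD of FPKM over 3 libraries. Pairs of libraries of a group varied beyond sampling noise. Their chi-square per degree of freedom was 2.377 to 7.394 in the control, 5.279 to 11.92 at 30 min and 2.136 to 3.105 at 24 h. Each library was used as its own replicate, but this spread does not show that they came from separate cultures. The procedure was also run on simulated counts with far fewer changed genes than were called here. That run does not test how the split into lower and higher genes depends on the scaling.

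The genes, classes and lists were chosen with earlier results of these data known. Genes named by rule were the markers DUSP6, EGR1, PIM1 and ID1, and MYC, up to 8 genes of each early class with the largest late change (in the class not called, the largest early change), the 10 largest late-only increases and decreases with a mean of at least 5 FPKM and groups that did not overlap, and the 3 highest and 3 lowest members of each list. Not all of these are named in the text, and some are not reported here. The other genes of the reversed and not-called classes, ZFP36L2, INSIG1 and SREBF2 were named after their values were seen, as were ATF3 and NFKBIZ for passing the filter through 1 group, and overlapping genes are named for the limit they set. Motifs were searched on both strands in the 250 bases before the RefSeq start of the 8557 tested genes with an entry, without test.

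Alternatives were the filter, DESeq2 1.42.0, its size factors, library totals, limma 3.58.1 on log2(FPKM + 0.1) and log2(FPKM + 1), quantile normalization, the fold threshold, a replicate block, the 6 treated libraries alone, each library left out, early genes chosen without 1 library, and TMM factors from all genes with a count, the last chosen after seeing the data.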

Additional observations from a re-analysis of the deposited data

How the results depend on the processing

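With DESeq2, its size factors in edgeR, the replicate block or TMM factors from all genes with a count, each count of genes and classes stayed within 1.5 times the value reported. The 6 treated libraries alone hold no control and gave only the counts between 30 min and 24 h, 1384 lower and 1845 higher. The counts moved most with the fold threshold. When a 2-fold change was required, 345 genes were lower and 777 higher at 24 h than at 30 min, 226 and 302 of them late-only, and 23 genes were lower at 30 min, of which 10 reversed, 0 deepened and 10 were not called. With no fold threshold these numbers were 3903, 3894, 3246, 2589, 154, 98 and 19. Genes higher at 30 min numbered 1, which reversed, at a fold of at least 2, and 34, of which 15 reversed, with no fold threshold. With a mean FPKM above 5, 787 were lower and 913 higher, 665 and 509 late-only, and of the genes lower at 30 min 17 reversed, 1 deepened and 18 were not called, while 7 were higher at 30 min and 1 of them reversed. With no filter, 95 were lower at 30 min, of which 40 reversed, 7 deepened and 48 were not called, and 30 were higher, of which 5 reversed. With limma on log2(FPKM + 1), 820 were lower, 669 late-only, 1 deepened, and 7 were higher at 30 min, of which 1 reversed. The deepened class held 1 gene with limma on log2(FPKM + 0.1) and 2 with library totals alone or with quantile normalization, where 18 genes were not called. The causes were not tested.

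Leaving out 1 of the 9 libraries at a time left between 1346 and 1436 genes lower and between 1760 and 1936 higher at 24 h than at 30 min, 984 to 1079 and 860 to 977 of them late-only. Between 58 and 63 genes were lower at 30 min, of which 23 to 32 reversed, 2 to 5 deepened and 24 to 32 were not called, and 9 to 18 were higher, of which 2 to 4 reversed. The deepened class was 2 without 30 min replicate 1, 30 min replicate 2 or 24 h replicate 1, and the 18 higher genes were found without 30 min replicate 2.

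Of the 26 genes that reversed, 26 did so with DESeq2 and 23 with quantile normalization. When the early genes were chosen without 1 library at 30 min and 24 h was compared with that library alone, 24, 26 and 26 genes reversed, of which 22, 22 and 20 were among the 26. The lone library was assumed there to vary like the other groups, which supply the spread. No median of a gene list changed sign under any alternative. Late changes near 0 did. That of TENT5A was 0.051 with a mean FPKM above 5, 0.055 with library totals alone, 0.058 and 0.055 with limma at either pseudocount and 0.067 with quantile normalization. That of CXCL8 was 0.050 with library totals alone and 0.055 and 0.036 with limma at either pseudocount. That of DNAJB1 was 0.0076 with quantile normalization. Without single libraries TENT5A lay between -0.078 and 0.039 and CXCL8 between -0.13 and 0.022.

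Libraries of different groups with the same number did not deviate together, with correlations between -0.139 and 0.11. Not every library correlated best with its own number. The numbers thus gave no sign of pairing, but a weak shared effect could be missed with so few libraries. With the replicate block, 1379 genes were lower and 1850 higher at 24 h than at 30 min, and 27 reversed. With 3 libraries a group, changes under the fold threshold and genes under 1 FPKM are described poorly, and a gene that missed the threshold is not shown to be unchanged.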
